A study of Drosophila melanogaster with 22 samples.

Results

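The pseudouridine landscape described here is that of RluA-2 mutant heads by themselves, read from the 4 pairs of CMC-treated and mock-treated libraries that Exp 2 made from this genotype. These are 8 of the 22 libraries of the series and 4 of its 11 pairs, taken by the genotype, experiment, treatment and replicate number of their labels. The heads came from virgin Drosophila melanogaster females aged 1 day and homozygous for RluA-2 del-FRT, a deletion of the whole locus of a pseudouridine synthase of the RluA family. The isogenic w1118 strain served as the control of the same experiment, with 4 further pairs from females of the same age. In each pair, poly(A)-enriched RNA of pooled heads received a spike-in RNA and was then split for CMC or mock treatment, so that the members of a pair share their RNA. The study describes its replicates as biological, each made from a pool of heads. Neither the labels nor the methods say whether the flies of different replicates came from separate cultures. The p-values of tests over replicates below measure the spread between these samples. Those of the test within a pair rest on the read counts of that pair and do not measure this spread. Their denominator, given with the processing, has a mock term larger than counting error. The mutant is 1 deletion line, and every cell type of the head lacks the gene.

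Pseudouridine is an isomer of uridine that synthases make in place within RNA, either as stand-alone enzymes or, for the H/ACA class, guided to a site by a small nucleolar RNA. It is dense in the functional centres of ribosomal RNA and in spliceosomal small nuclear RNAs, and occurs in transfer RNAs and in messenger RNAs. CMC binds uridine and guanosine, alkaline treatment removes it again except from pseudouridine, and the remaining adduct stops reverse transcriptase 1 base before the modified one. The termination ratio of a position is thus the share of the inserts covering it that end there, and the fold change of a position compares this ratio between CMC and mock on the log2 scale, after 0.5 was added to each termination count and 1 to each coverage. All positions below are those of the base before the stop, counted from the start of the RNA or of the annotated gene span. A position was called in a pair when a one-sided test of the 2 proportions gave an adjusted p under 0.05 with at least 5 CMC reads ending and 5 going on. A call in all 4 pairs was the check for reproducibility.

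The following sites have some of the highest fold changes of their RNA class or gene in the mutant, or are sites that the study names, and are shown with the 10 bases to either side so that a reader can place them. The capital marks the base read as the site, written as T, and the flanks were copied from the study's own supplementary lists of rRNA and other noncoding RNA sites. These lists hold uridines only, so that the T was fixed by the choice, and high sites without a listed flank are left out here.
18S 1937: acttgattatTtagaggaagt
28S 2995: gtttgttataTaatcgcaaac
28S 2611: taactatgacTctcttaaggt
28S 3381: cgatgtcggcTcttcctatca
28S 3614: ggattatgccTgaacgcctct
28S 2188: gtaagggaagTcggcaaatta
snRNA:U2:14B 55: tcttatcagcTtaacatctga
snRNA:U2:34ABc 55: tcttatcagcTtaacatctga
snRNA:U2:14B 45: tagtatctgtTcttatcagct
snRNA:U1:21D 6: aaagcatactTacctggcgta
snRNA:U1:82Eb 6: aaagcatactTacctggcgta
snRNA:U6:96Ab 40: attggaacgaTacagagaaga
7SLRNA:CR32864 154: gaggagtccgTggcattcagg
lrRNA 158: aattttatttTaaaagaaaat
lrRNA 1176: aaattttaagTctgttcgact
The 2 U2 copies and the 2 U1 copies have the same 21 bases around these sites. Reads of such near-identical genes can be assigned to either copy, and the values of single copies are uncertain for that reason.

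Library size varied more among mock than among CMC libraries. Total gene counts ranged over 19503469 to 21412913 with CMC and over 12174443 to 22000890 with mock treatment, the lowest in mock replicate 2. Of all listed terminations, 26.5 to 35.2% fell in the rRNA gene unit with CMC, and 45.6 to 52.5% with mock treatment. Within the span of the deleted gene (2L, 10477073 to 10482975, forward strand) there were 28, 28, 12 and 40 CMC terminations in RluA-2 replicates 1 to 4, against 125, 159, 99 and 102 in w1118. With the first kb left out, there were 2, 0, 0 and 0 in RluA-2, against 107, 136, 80 and 92 in w1118. Photoreceptor markers were abundant, the testis markers had at most 0.0966 CMC terminations per 1000000 gene counts on average in the mutant, and the 4 fat body genes differed in direction between the genotypes. On the same scale Lsp2, a larval serum protein, was at 861 in RluA-2 and 2559 in w1118, whereas the yolk protein genes Yp1, Yp2 and Yp3 were at 25036, 17674 and 17509 in RluA-2 and at 21866, 15902 and 15804 in w1118, differences that were not tested. In such bulk tissue, fewer cells of a type and less RNA per cell cannot be told apart.

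The spike-in RNA carries a single pseudouridine, at position 43, and checks the chemistry. Its log2 fold change, here without added constants, was 6.84, 6.88, 6.69 and 6.66 in the RluA-2 pairs (mean 6.77 ± 0.11, SD, n = 4), against 6.78 ± 0.10 (SD, n = 4) in the w1118 pairs. The values of the genotypes overlap (exact permutation test, two-sided, p = 0.83). The CMC termination ratio there was 45.9, 46.9, 44 and 45.9% in RluA-2, at a mean mock ratio of 0.420%. No RluA-2 pair stood apart from the others at this site.

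Across the transcriptome, 1303 positions were called in all 4 RluA-2 pairs, of 169321 tested in all 4 (0.770%). Single pairs called 2934, 1445, 2057 and 1673 positions (0.654, 0.305, 0.469 and 0.370% of those tested in replicates 1 to 4). With the standard pooled variance in place of the denominator used here, 34136 positions were called in all 4 pairs, and 480 were called when positions with 2 entries in the files were left out. A further 1055 positions were called in 1 pair only, 462 in 2 pairs and 306 in 3 pairs. Cytoplasmic rRNA held 915 of the 1303, nuclear protein-coding genes 170, mitochondrial rRNA 80, nuclear noncoding RNAs 62, mitochondrial mRNAs 18 and the spike-in 9. A further 48 lay in the last 281 bases of the rRNA reference, which repeat the start of 18S rRNA, and 45 of these were also called at the same base of 18S. The share of tested positions that were called in all 4 pairs was 29% in cytoplasmic rRNA, 12.9% in mitochondrial rRNA, 2.21% in nuclear noncoding RNAs, 0.668% in mitochondrial mRNAs and 0.107% in nuclear protein-coding genes.

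In each of the 5 classes the called share was highest in its deepest range of mock coverage, but the order of the classes was not that of their depth. Nuclear noncoding positions had a median mock coverage of 1208 and mitochondrial mRNA positions one of 4862, against called shares of 2.21 and 0.668%. In protein-coding genes, the median mock coverage was 985 at tested positions and 24988 at positions called in all 4 pairs, and none of the positions below a mock coverage of 1000 was called in all 4. Above 20000, 4.50% of the tested protein-coding positions were called, against 30.1% of those in cytoplasmic rRNA, 17.6% in mitochondrial rRNA and 17.1% in nuclear noncoding RNAs. The noncoding share is 43 of 251, the same counts as in 7SLRNA:CR32864. The 113 protein-coding calls equal in number those in Yp1, Yp2 and Yp3, so these class shares may rest on few genes. When every library was thinned to a coverage of 1000 at each position, 85 positions were called in all 4 pairs, 76 of them in cytoplasmic rRNA and none in protein-coding genes. Single positions were called at a low coverage where the CMC ratio was high, as at U55 of U2:34ABa with a CMC coverage of 25 to 39, and a missing call at low coverage does not show that a modification is absent. The fold changes themselves were reproducible across the called positions, with Pearson's r of 0.978 to 0.984 between pairs over 1303 positions, given as a description since the positions were called in these same pairs. The median fold change over these positions was 1.84, 1.71, 1.66 and 1.54 in replicates 1 to 4.

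Cytoplasmic rRNA, the RNA of the ribosome, held most of the calls with the settings used here, which other settings changed. Of its 915 positions, 763 had 2 entries in at least 1 pair. With such positions left out, cytoplasmic rRNA held 143 of the 480 calls and protein-coding genes 149. With the standard pooled variance, cytoplasmic rRNA held 2617 of the 34136 and protein-coding genes 29035. In 18S rRNA of the small subunit, 330 of 999 tested positions were called in all 4 pairs, in 28S rRNA of the large subunit 534 of 2044, and in 5.8S rRNA 51 of 106. Of the 896 called rRNA positions whose base was known, 569 were U (63.5%, 95% Wilson interval 60.3 to 66.6, counting error only), 137 G, 131 A and 59 C. Calls were made at 54.3% of the 1048 U that were tested and of known base, against 18.7% of such G, 19.6% of A and 17.8% of C. Bases were read from flanks of listed uridine sites, and positions near such sites are therefore over-represented among those of known base. The U share grew with the number of pairs that made the call, being 38.8% for positions called in 1 pair, 42.1% for 2, 49.2% for 3 and 63.5% for 4.

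**Figure D1:**
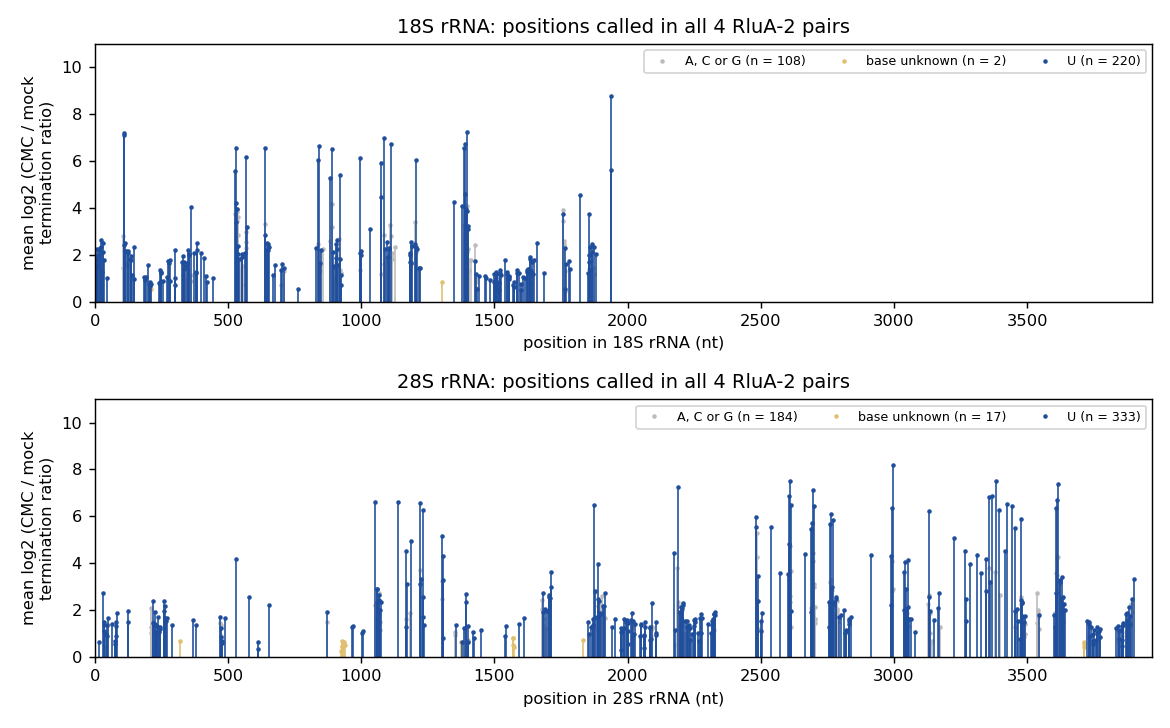
Mean log2 fold change, CMC over mock (y axis), at each position called in all 4 RluA-2 pairs, along 18S and 28S rRNA (x axis, nucleotides from the RNA's start). Each line is 1 position, coloured by its base; U positions reach 8.76 in 18S and 8.18 in 28S, and the stretch of 28S from 501 to 1000 holds 16 called positions.

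**Figure D2:**
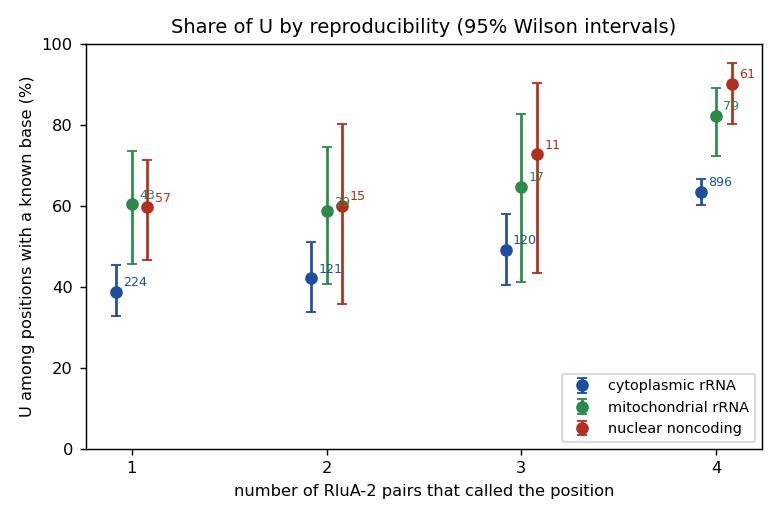
Share of U among called positions with a known base (y axis, percent) by the number of RluA-2 pairs that called them (x axis), for 3 RNA classes; points are shares, bars 95% Wilson intervals and the numbers beside them the positions with a known base. The share is highest in all 3 classes for positions called in all 4 pairs, at 63.5, 82.3 and 90.2%.

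Called positions that were not U adjoined a called U more often than uncalled ones did. A called U stood directly beside 63.5% of the called G, 59.5% of the called A and 66.1% of the called C, against 21.7, 16.3 and 24.9% of the G, A and C that were tested in all 4 pairs and called in none, a description without a test. Of the 915 called positions of cytoplasmic rRNA, 689 had a called neighbour. The adjoining U had the higher fold change beside 55.5% of the called G, 55.7% of the called A and 59.3% of the called C. The base after a called U was G in 31.3% and A in 21.5% of cases, against 18.4% G and 41.2% A for U that were tested in all 4 pairs and called in none. A pair of adjacent called U was frequent as well, since 259 of the 569 U had one, and in such runs the files alone do not say which base stopped the enzyme.

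Fold changes in rRNA were widely spread. Among the 569 called U of rRNA, 493 had a log2 fold change above 1, the median was 1.76 and the median CMC termination ratio 4.32%. A ratio above 10% was reached by 115 of them and a ratio above 50% by 30. The fold change was above 3 at 107 and above 5 at 56. The U called in all 4 pairs were unevenly spread, and between positions 501 and 1000 of 28S 8.99% of the known U were called, against 38.7 to 60.7% in the other windows of 500 bases of 28S and 41.4 to 60.7% in those of 18S. U with a fold change above 5 were most frequent in 28S between 2501 and 3000, where there were 13, and in 18S between 501 and 1000 and 28S between 3001 and 3500, with 10 each.

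The highest fold change in rRNA was at U1937 near the 3′ end of 18S, with 9.25, 9.45, 8.28 and 8.07 in the RluA-2 replicates. Its CMC termination ratio was 26.2, 19.2, 24.8 and 21.9%, and its mock ratio averaged 0.0575%, so that the fold change rests on 22 to 78 mock terminations per library. In 28S, U2995 reached 8.15, 8.41, 8.25 and 7.90 with CMC ratios of 48.6, 43, 48.7 and 44.5%. U2611, with 7.57, 7.56, 7.33 and 7.52, had the highest CMC ratios of these 6 sites at 70.2, 70.9, 66.9 and 71.0%. U3614 and U2188 were close to each other in ratio, at 60.6 ± 0.531% and 58.2 ± 2.29% (SD, n = 4), and U3381 varied most, from 25.4 to 46.1%. In w1118 the mean fold changes of the 6 were 6.95 to 8.85 and the pair values of the genotypes overlapped at 5 of the 6. The exception was U2188, with 7.18, 7.35, 7.25 and 7.18 in RluA-2 against 7.09, 7.18, 7.10 and 6.90 in w1118, where the nearest values of both genotypes round to 7.18. Pair values did not overlap at 3.00% of all 208759 positions compared between the genotypes. The test of genotypes below did not call U2188.

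The 53 large-subunit sites that the study marked as known from earlier mapping, a list that the authors had restricted to sites called in w1118, give a gauge of 28S modification. In RluA-2, 51 of them were called in all 4 pairs and 2 in none. The 2 that were not called, 28S 1129 and 1135, had 1 to 9 CMC terminations per library, at a coverage of 592 to 3298. The median CMC termination ratio of the 53 was 32.3%, with 17 sites above 50%, 12 under 10% and the highest at 85.5%. The per-pair median log2 fold change, again without added constants, was 5.70, 5.81, 5.58 and 5.50 in RluA-2 (mean 5.65 ± 0.13, SD, n = 4), against 5.63, 5.83, 5.01 and 4.93 in w1118 (5.35 ± 0.45, SD, n = 4). The 2 groups overlapped (exact permutation test, two-sided, p = 0.343), and w1118 replicates 3 and 4 were the low ones. The mean was higher in RluA-2 at 45 of the 53, with a median difference of 0.21. Beyond this list, 518 further U of cytoplasmic rRNA were called in all 4 pairs, at a median fold change of 1.64, 24 of them above 5.

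**Figure D3:**
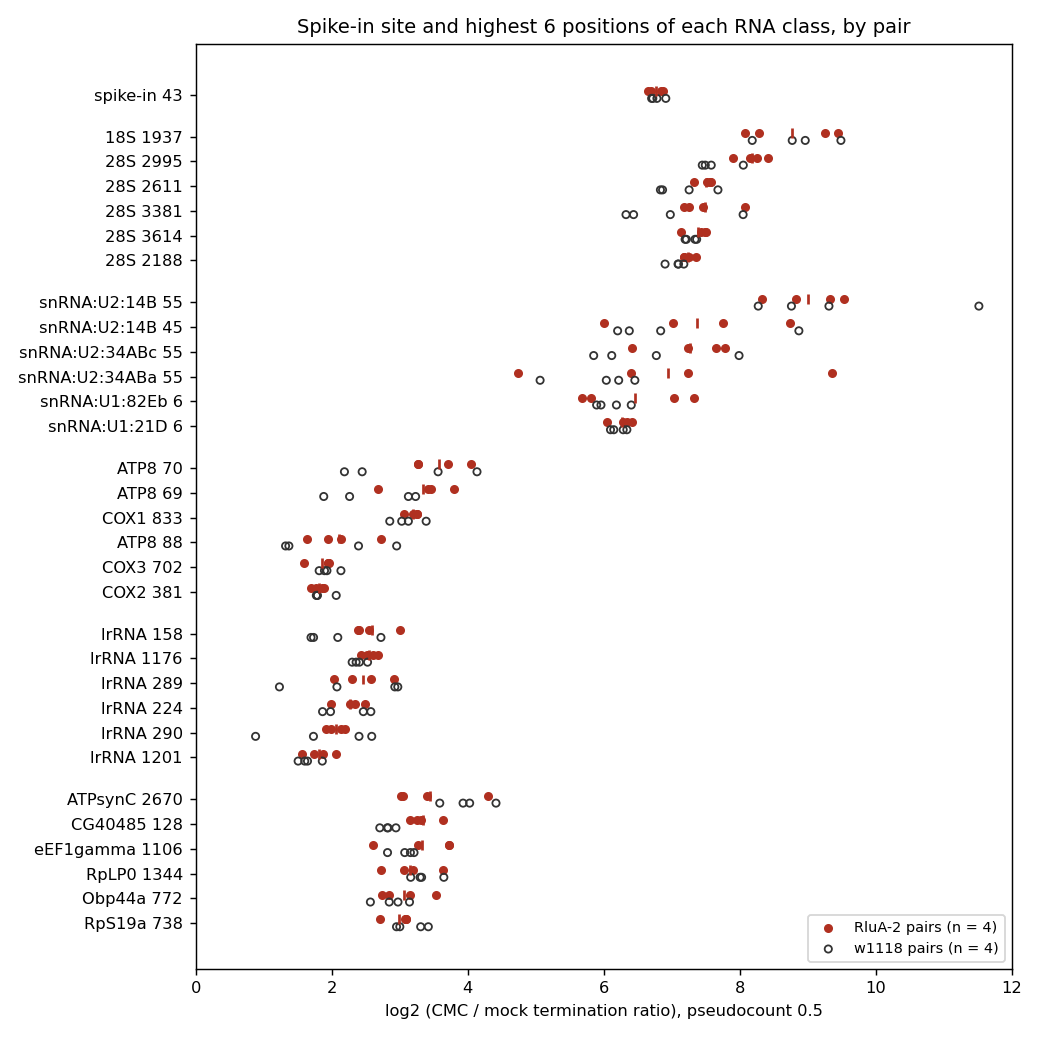
Log2 fold change, CMC over mock (x axis), at the spike-in site and the 6 highest positions of each RNA class (rows), in the 4 RluA-2 pairs (filled, above, with their mean as a tick) and the 4 w1118 pairs (open, below). Sites of rRNA and small nuclear RNAs lie mostly above 5, and those of mitochondrial and protein-coding RNAs below 4.5.

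Spliceosomal small nuclear RNAs, which recognise splice sites and form the catalytic core of the spliceosome, had the highest fold changes of the mutant. Of 30 such genes, 10 had tested positions and 6 had positions called in all 4 pairs, 17 in total of 230 tested (7.39%, against 0.770% over all positions). At U55 of U2:14B, a copy of the RNA that pairs with the branch point, the fold change was 9.33, 8.32, 9.53 and 8.83. The CMC termination ratio there was 43.5, 31.1, 42.4 and 39.9%, while the mock libraries had 2, 1, 1 and 2 terminations in all. U45 of the same RNA had 6.0, 8.74, 7.75 and 7.02 at 20, 1, 5 and 8 mock terminations, while the CMC ratio stayed between 34.4 and 44.1%. Leaving the copies apart, U55 had mean fold changes of 7.27 ± 0.62 in U2:34ABc and 6.94 ± 1.92 in U2:34ABa (SD, n = 4).

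U1, which pairs with the donor splice site, was called at U5 and U6 of copy 21D. U5 had CMC ratios of 70.2, 73.0, 75.3 and 70.5% and fold changes of 5.10, 5.11, 5.14 and 5.17, and U6 had 62.0, 56.8, 58.6 and 58.5% and 6.42, 6.05, 6.34 and 6.28. U22 of this RNA was called in 3 of the 4 pairs, at 2.52, 1.83, 2.88 and 2.26. U40 of U6:96Ab, a copy of the RNA at the catalytic centre, had CMC ratios of 71.0, 72.3, 72.2 and 62.5% and a mean fold change of 5.78 ± 0.13 (SD, n = 4). The pair values overlapped with those of w1118 at U5 and U6 of U1:21D, and not at U40 of U6, where they were 5.96, 5.67, 5.8 and 5.70 in RluA-2 against 5.62, 4.82, 5.61 and 5.54 in w1118. The test of genotypes below called no position of a nuclear noncoding RNA, and values did not overlap at 3.00% of all positions compared.

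7SL RNA, the scaffold of the signal recognition particle that directs secreted proteins to the endoplasmic reticulum, held the most called positions of any noncoding RNA outside the ribosome. The gene 7SLRNA:CR32864 had 43 positions called in all 4 pairs of 251 tested (17.1%), and 38 of the 43 were U. They ran from position 2 to position 253, 10 of them had a fold change above 2, and 41 were also called in all 4 w1118 pairs. The highest was U154, with 3.35, 3.11, 2.92 and 2.85 in the RluA-2 replicates at a mean CMC ratio of 4.32%. U137 followed with 2.79, 2.88, 2.94 and 2.59, then U253 with a mean of 2.67 and U232 with 2.41. The median over the 43 was 1.75. The signal in 7SL was thus many stops of a few percent, without a site of the height seen in U1 or U2.

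Other small RNAs were at the limit of the depth. Of 290 nuclear tRNA genes, 3 had tested positions and none had a position called in all 4 pairs. U27 of tRNA:Val-AAC-2-1 ended 9 of 12, 3 of 6, 3 of 5 and 2 of 8 CMC inserts, against 0 of 50, 0 of 15, 0 of 45 and 0 of 52 mock inserts. U27 of tRNA:Val-CAC-1-1 had 5 of 9, 2 of 5, 1 of 5 and 2 of 5 CMC inserts, with a single mock termination in replicate 3. The stops at these bases recurred in every pair, at counts below the minimum of 5 in most. Whether the listed coverage, like the listed terminations, is 1 above the inserts is not stated, and these small denominators could each be 1 lower. In tRNA:Glu-TTC-1-6, U54 was deeper, with CMC ratios of 1.14, 2.11, 2.44 and 2.96% and no mock termination at a coverage of 1109 to 2389, and it was called in no pair.

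Of the other noncoding RNAs, U46 of U5:63BC was covered by 10, 3, 2 and 8 CMC inserts and was called in no pair. U269 of 7SK, the RNA that holds the elongation factor P-TEFb inactive, had fold changes of 2.57, 1.80, 1.34 and 1.73 and was called in 1 pair. U101 of the guide RNA snoRNA:Psi28S-3342 had 4.66, 4.89, 3.81 and 3.34 and was called in 1 pair. Among 269 snoRNA genes, 7 had tested positions and 1, snoRNA:U3:54Ab, had positions called in all 4 pairs, 2 in number. The transcripts of 9 pseudouridine synthases and 3 other H/ACA core proteins had no position tested in all 4 pairs.

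In mitochondria, the large-subunit rRNA held the most reproducible sites. In lrRNA, 78 of 501 tested positions were called in all 4 pairs (15.6%), and in srRNA of the small subunit 2 of 118. Of the 79 called mitochondrial rRNA positions with a known base, 65 were U (82.3%, 95% Wilson interval 72.4 to 89.1) and 12 were A. Fold changes were lower than in cytoplasmic rRNA, with a median of 1.17 and none above 2.59. The top value was that of U158 of lrRNA, with 3.00, 2.55, 2.41 and 2.39 at CMC ratios of 11.6, 8.12, 7.32 and 7.14%. U1176 had 2.43, 2.61, 2.51 and 2.68 at CMC ratios of 1.59 to 1.82%, on a coverage of 80691 to 118259. The highest CMC ratio among the 6 leading sites was at U290, with 32.5, 25.7, 26.7 and 25.8%, but the mock ratio there averaged 6.62%, and the fold change was 2.20, 2.13, 1.99 and 1.91. The position beside it, A289, was called as well, at a mean of 2.46.

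Mitochondrial mRNAs, which encode subunits of the respiratory chain and ATP synthase, had 18 positions called in all 4 pairs of 2696 tested (0.668%, against 0.770% over all positions). They fell in 5 of 13 genes, with 6 in COX3 and 3 each in COX1, COX2, ATP6 and ATP8. In ATP8, a small subunit of ATP synthase, neighbouring positions 70 and 69 had fold changes of 3.71, 4.05, 3.26 and 3.27 and of 3.80, 3.42, 3.46 and 2.68. Their CMC coverage was low, between 136 and 193 at position 70. Position 833 of COX1, the core subunit of cytochrome c oxidase, was steadier, with 3.07, 3.25, 3.26 and 3.19 and CMC ratios of 20.1, 21.5, 21.5 and 21.9%. Position 381 of COX2 had the highest CMC ratios, 43.3, 40.1, 40.7 and 42.1%, over a mean mock ratio of 11.9%. The called positions of these mRNAs had median ratios of 16.9% (CMC) and 4.87% (mock) over the 18, and those of 7SL 4.19 and 1.19% over the 43. A call at lower coverage needs a larger difference in ratio. The median mock coverage of called positions was 5426 in mitochondrial mRNAs and 86086 in nuclear noncoding RNAs. These medians are therefore no comparison of the RNAs themselves.

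Nuclear protein-coding genes had 170 positions called in all 4 pairs, in 26 genes, at a median fold change of 1.81 and a range of 0.75 to 3.44. Of these, 113 (66.5%) lay in Yp1, Yp2 and Yp3, the yolk proteins that fat body secretes for the egg, with 50, 25 and 38 positions. Their median fold changes were 1.77, 1.77 and 1.74, and their median CMC ratios 5.04, 5.27 and 5.68%. Of the 2827 tested positions of these 3 genes, 4.00% were called, against 0.107% over all protein-coding positions. They were also deep, with 17509 to 25036 CMC terminations per 1000000 gene counts. Over all protein-coding positions above a mock coverage of 20000 the share was 4.50%, or 113 of 2510. How many of these positions lay in the 3 yolk protein genes was not counted, so this share is no comparison with other deep genes. After thinning to a coverage of 1000, none of the 3 genes kept a call. Lists of genes are described here by their counts, and nothing about them was tested as a set.

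**Figure D4:**
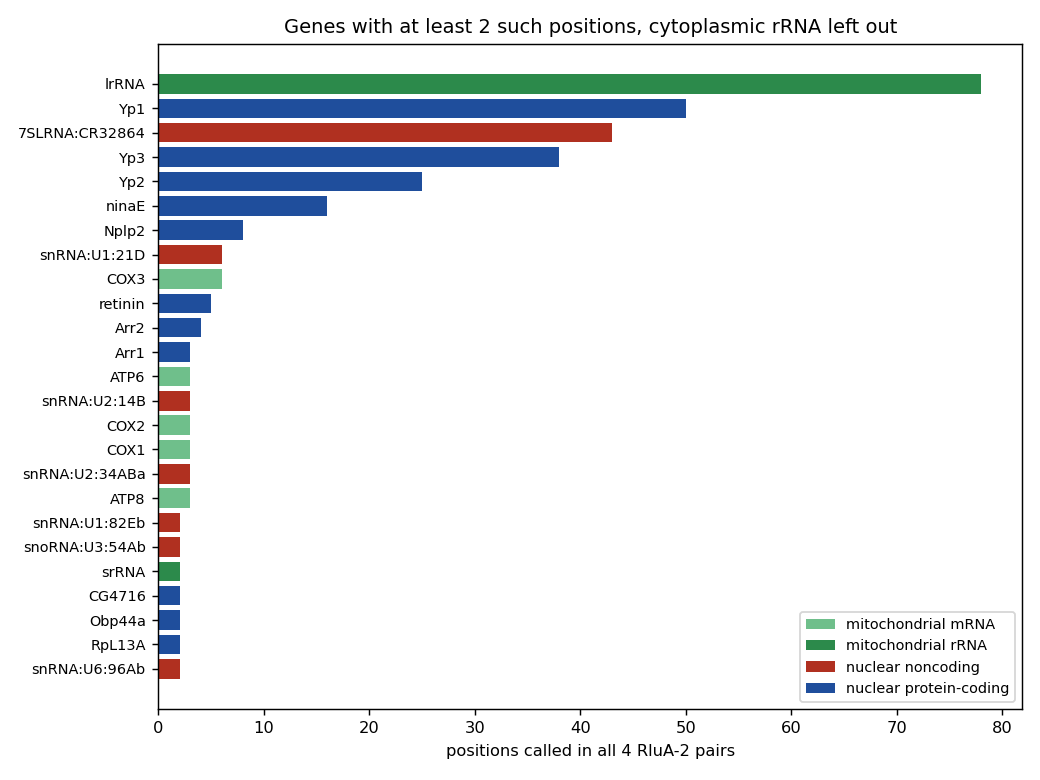
Number of positions called in all 4 RluA-2 pairs (x axis) in each gene with at least 2 (rows), coloured by RNA class and without cytoplasmic rRNA. The mitochondrial lrRNA leads with 78, followed by Yp1 with 50, 7SL with 43, Yp3 with 38 and Yp2 with 25.

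Genes of the eye came next. ninaE, the opsin of the outer photoreceptors, had 16 such positions of 864 tested, with a median fold change of 1.92. retinin, a protein of the corneal lens, had 5 of 470, and the arrestins Arr2 and Arr1, which quench rhodopsin, had 4 of 864 and 3 of 775. Over all protein-coding positions the share was 0.107%. The other 11 of the 15 photoreceptor genes had none, among them trp, norpA and inaD. Nplp2, annotated as a neuropeptide-like precursor, had 8 of 262 tested positions. Of 51 odorant-binding genes, 13 had tested positions, and 3 of their 1432 tested positions were called (0.209%), in 2 genes. Of 92 cytoplasmic ribosomal protein genes, 82 had tested positions, and 8 of their 20893 tested positions were called (0.0383%), in 7 genes.

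The 6 highest single positions of nuclear protein-coding genes lay in 6 genes, 2 of them of ribosomal proteins and 1 of an odorant-binding protein. Position 2670 of ATPsynC, the c-ring subunit of mitochondrial ATP synthase, had 4.30, 3.40, 3.05 and 3.02, at CMC ratios of 16.8, 13.5, 12.9 and 13.5%. Position 1106 of eEF1gamma, a subunit of the translation elongation factor, had 3.26, 3.73, 3.72 and 2.6, and position 1344 of RpLP0, of the ribosomal stalk, had 3.63, 3.20, 2.73 and 3.06. CG40485 position 128 averaged 3.34 ± 0.21, Obp44a position 772 averaged 3.07 ± 0.35 and RpS19a position 738 averaged 2.99 ± 0.19 (SD, n = 4). Their CMC ratios were all between 7.48 and 16.8%. The bases at protein-coding and mitochondrial mRNA positions were not read here, since no genome sequence was used, so whether these stops lie next to a uridine was not tested.

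A test over the replicates gave a second view of the treatment. Limma's treat on the within-pair differences asked at 228745 positions, each with a coverage of at least 500 in all 8 libraries and at least 20 terminations, whether the termination ratio changed more than 2-fold. It called 16008 positions higher with CMC (7.0%) and 575 lower (0.251%), at an adjusted p under 0.05. The median log2 fold change of all tested positions was 0.53, a shift common to the 4 pairs, and with each pair centred on its median the counts were 3607 and 1181. Of the 1262 positions called in all 4 pairs and tested here, 916 (72.6%) were higher, including all 42 of the known large-subunit sites that had the coverage. Both tests used the same 8 libraries, so this overlap is in part built in and is a description only.

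By class, limma called 20.7% of 5442 cytoplasmic rRNA positions higher, 15.6% of 851 mitochondrial rRNA positions, 9.60% of nuclear noncoding positions, 8.29% of mitochondrial mRNA positions and 6.5% of 214515 protein-coding positions. Shares also differed by base among positions of known base. Such positions lie near uridines that the study had called in w1118 of this series, so that a high share at U is in part built in. In cytoplasmic rRNA 49.8% of the U, 23.2% of the G, 13.1% of the A and 12.7% of the C were higher. In nuclear noncoding RNAs 83.3% of 156 U and 30.4% of 184 G of known base were higher, against 9.60% of all 3532 tested positions of the class. With each pair centred on its median, the shares higher were 10.5% in cytoplasmic rRNA, 4.70% in mitochondrial rRNA, 2.58% in nuclear noncoding RNAs, 1.56% in mitochondrial mRNAs and 1.30% in protein-coding genes. In cytoplasmic rRNA the balance then turned round, from 1124 higher and 511 lower positions without centring to 574 higher and 757 lower with it. Without centring, the lower positions were concentrated in cytoplasmic rRNA, which held 511 of the 575, or 9.39% of its tested positions.

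Of the gene lists, yolk proteins had 12.4% of their tested positions higher (558 of 4482) and none lower, in 3 of 3 genes. Ribosomal protein genes had 8.64% higher (3513 of 40639) in 82 of 82 tested genes and 9 positions lower, photoreceptor genes 5.97% higher in 11 of 12, odorant-binding genes 8.54% in 5 of 5, neuropeptide-like genes 13.1% in 2 of 2 and translation elongation genes 5.20% in 6 of 6. Small nuclear RNAs had 32.8% of 183 positions higher and 7SL 28.4% of 433. The share over all tested positions, for comparison, was 7.0%, and the shares of these protein-coding lists lay between 5.20 and 13.1%. Shares of the lists were not recomputed with centring.

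In cytoplasmic rRNA and nuclear noncoding RNAs, most positions called in RluA-2 heads were shared with w1118 heads. Of the 1303 positions called in all 4 RluA-2 pairs, 1079 (82.8%) were also called in all 4 w1118 pairs and 2 in none. By class, this share was 90.9% in cytoplasmic rRNA, 93.5% in nuclear noncoding RNAs and 63.8% in mitochondrial rRNA. It was 47.6% (81 of 170) in protein-coding genes and 27.8% (5 of 18) in mitochondrial mRNAs. Conversely, of the 1222 positions called in all 4 w1118 pairs, 1079 (88.3%) were called in all 4 RluA-2 pairs and 7 in none. Of these 7, 5 were in protein-coding genes, 1 in cytoplasmic rRNA and 1 in a nuclear noncoding RNA. In this direction the share was 84.4% of 96 positions in protein-coding genes and 100% of 5 in mitochondrial mRNAs. The test of proportions depends on depth, and libraries of the genotypes differ in it, so these counts are a description.

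The difference in fold change was tested with limma at 208759 positions. It called 58 (0.0278%), of which 24 were higher in RluA-2 (0.0115%) and 34 lower (0.0163%). An unadjusted p under 0.05 was found at 10510, close to the share of 0.05 that is reached where nothing differs. Pair values of the genotypes did not overlap at 6255 positions (3.00%) and at 57 of the 58. None of the 58 lay in mitochondrial RNAs or nuclear noncoding RNAs, 24 lay in cytoplasmic rRNA and 34 in protein-coding genes, and 7 of them were among the 1303. The count was 105 without w1118 replicate 2, 33 without w1118 replicate 4 and 37 without RluA-2 replicate 4.

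In rRNA, 3 U sites had more CMC stops in the mutant, and they are shown here with their flanks.
18S 1086: tcgaaggcgaTcagataccgc
18S 1111: gttctaaccaTaaacgatgcc
28S 2687: ctactgtcccTatctactatc
At U1086 the CMC termination ratio was 40.2, 40.4, 36.3 and 40.2% in RluA-2, against 18.6, 19.3, 18.4 and 19.4% in w1118. The mock ratio was 0.300 to 0.311% in RluA-2 and 0.307 to 0.360% in w1118, and the fold change rose by 1.15 ± 0.13 on the log2 scale (SE, limma adjusted p = 0.000146). At U1111 the CMC ratio was 48.3, 49.1, 48.5 and 50.3% in RluA-2, against 30.2, 33.3, 25.5 and 24.5% in w1118, a rise of 1.22 ± 0.17 (SE, limma adjusted p = 0.0018). The neighbours A1085, A1110 and A1112 rose as well, by 0.94, 1.15 and 0.74. At U2687 of 28S, one of the known large-subunit sites, the CMC ratio was 13.3, 15.2, 11.6 and 14.3% in RluA-2, against 10.2, 10.7, 4.99 and 4.01% in w1118, a rise of 1.29 ± 0.22 (SE, limma adjusted p = 0.0177). Of the 42 known sites tested, this was the 1 that differed. Its lowest values again came from w1118 replicates 3 and 4, and the call was lost without RluA-2 replicate 1, 2 or 4 or w1118 replicate 3 or 4. Its neighbour C2686 rose by 0.70. U1086 and U1111 were named after their values were seen.

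The other 17 rRNA positions that differed had CMC ratios below their mock ratios in both genotypes. In 18S, 15 positions were lower in RluA-2, 10 of them between 1048 and 1065. At 1053, for example, the log2 fold change was -3.61, -3.49, -3.84 and -4.49 in RluA-2, against -2.6, -2.42, -1.84 and -1.84 in w1118. These bases lie just 5′ of U1086 and U1111.

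**Figure D5:**
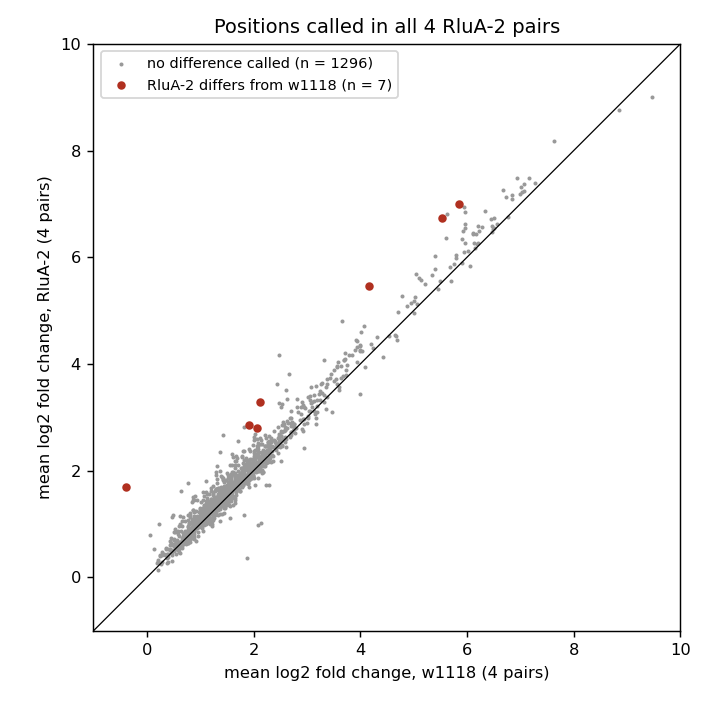
Mean log2 fold change over the 4 RluA-2 pairs (y axis) against that over the 4 w1118 pairs (x axis) at the positions called in all 4 RluA-2 pairs; each point is 1 position and the line marks equal values. The 7 positions that differ by limma are 18S 1085, 1086, 1110, 1111 and 1112, 28S 2687 and Yp1 1206, all above the line. Only positions called in RluA-2 are shown, which favours this side. Of all 58 differing positions, 34 were lower in RluA-2.

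In protein-coding genes, the 34 positions lay in 18 genes. The largest differences were at Argk1, arginine kinase of muscle and nerve, where position 8482 had fold changes of 7.79, 0.82, 7.40 and 6.88 in RluA-2, against -0.77, 0.12, 0.46 and 0.19 in w1118. The CMC ratio there was 1.88 to 3.49% in RluA-2 and 1.63 to 2.73% in w1118, and the groups overlapped in it. The mock ratio was 0 in RluA-2 replicates 1, 3 and 4, against 1.96% in replicate 2 and 1.71 to 2.84% in w1118. The fold therefore rests on the pseudocount and on mock libraries with no termination, and position 8483 beside it had the same pattern. Both calls were lost without RluA-2 replicate 1, 3 or 4.

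At Rh4 position 83, in a gene of an ultraviolet-sensitive opsin, the CMC ratio was 4.42, 4.19, 3.17 and 3.85% in RluA-2, against 0.711, 0.711, 0.456 and 0.604% in w1118. The mock ratios were alike, at 1.21 to 1.30% in RluA-2 and 1.04 to 1.54% in w1118, and the fold change rose by 2.54 (limma adjusted p = 0.000288). Position 875 of blw, the alpha subunit of mitochondrial ATP synthase, rose by 2.66 and position 770 of RpL14 by 2.88. CG4000 position 596 had CMC ratios of 1.08, 0.801, 0.932 and 0.985% in RluA-2, against 3.76, 2.98, 3.09 and 3.70% in w1118, and fell by 2.50 (limma adjusted p = 1.35e-06). At CG4000 432, CG31904 3873 and CG7214 431 the fold change fell by 2.47, 2.33 and 2.29. The calls at RpL14 770, CG31904 3873 and CG7214 431 were each lost without 1 or another of 3 to 5 replicates.

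Some genes had both higher and lower positions. Yp1 had 6 of the 58. At position 1206 the CMC ratio was 4.61, 4.04, 4.48 and 4.14% in RluA-2, against 0.671, 0.811, 0.790 and 0.861% in w1118, and the fold change rose by 2.08. At position 1338 the CMC ratio was 0.682, 0.607, 0.661 and 0.675% in RluA-2, against 2.98, 2.37, 2.36 and 2.94% in w1118, and the fold change fell by 2.10. Nplp3, annotated as a neuropeptide-like precursor, also had 6. At its position 466 the mock ratio was higher in the mutant, at 1.59, 1.68, 1.96 and 2.15% in RluA-2 and 0.0124, 0.101, 0 and 0.0143% in w1118. The mean log2 fold change was -0.36 in RluA-2 and 2.06 in w1118. With such mock ratios, the lower fold change cannot be read as fewer CMC stops in the mutant. The Yp1 positions and Nplp3 were named here for their number of calls after these were seen.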

How the data were processed

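Psi-seq libraries of RluA-2 heads (4 CMC and 4 mock) were analysed, with the 8 w1118 libraries of Exp 2 for comparison. Per the methods, the authors used Trimmomatic 0.33 for trimming, Bowtie2 for alignment to the rRNA gene unit and the spike-in, STAR 2.6.1a for alignment to the genome and featureCounts 2.0.0 for pairs per gene. The deposited gene values are raw counts, and the deposited termination files give per position a termination count, a coverage count and their quotient, the deposited fraction, which was recomputed here. Listed termination counts are 1 above the reads and were lowered by 1, and whether coverage is raised in the same way is not stated. A position is listed only if at least 1 CMC read ends there, and 51.7 to 64.2% of a pair's positions had no mock termination. In each RluA-2 pair 1534 to 2052 positions, nearly all in the rRNA unit, have 2 entries. The entry with more terminations was kept, and such entries hold 99.88 to 99.92% of the terminations.

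Total gene counts per library are given in the report, and each termination ratio has the coverage of its position as its depth. Intervals do not cover PCR duplication, only counting error. The test of 2 proportions within a pair was a one-sided z-test with the denominator sqrt(p(1-p)/CMC coverage + 1/mock coverage), as inferred from the study's adjusted p-values, with Benjamini-Hochberg adjustment within a pair. The formula printed in the methods subtracts the reciprocal of the mock coverage instead, which gives no value where mock coverage is the lower. The standard pooled variance was the alternative. Limma's treat (log2 threshold 1, trend) was run on within-pair differences, and eBayes (trend) on fold changes of RluA-2 minus w1118 at a coverage of at least 500 in 16 libraries. edgeR's quasi-likelihood test was an alternative. On simulated data, treat called 95 of 100 positions changed by 2 and 100 of 100 changed by 3 on the log2 scale, and 0 of 19750 others, in 19950 simulated positions for the paired comparison. The simulation placed changes only at positions with many terminations and gave the others no common shift. The real data have a median log2 fold change of 0.53, so the simulated rate of false calls does not carry over to them. Single values were compared by exact permutation tests.

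CMC and mock libraries of a number are paired because each RNA was split. Deviations of same-numbered libraries from their group means correlated at -0.006 to 0.012 across positions. Same-numbered RluA-2 and w1118 pairs share only a number.

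Starts of rRNAs were set at the highest mock termination near the expected start, with lengths from the annotation: 18S at 1, 5.8S at 2722, 2S at 2873 and 28S at 3294 of the unit. Genes were placed by release 6 spans, and antisense genes (asRNA) were left out since the table gives no strand for them. Bases were known for 6350 positions, from flanks of 977 supplementary sites without conflict. The members and lists were chosen with earlier results of these data known. Named are the spike-in site, sites the study names on small RNAs, the 6 highest fold changes of each RNA class among positions called in all 4 pairs (at most 2 per protein-coding gene), the genes with most such positions, fixed gene lists, and the 5 largest and 5 smallest genotype differences that do not overlap. Alternatives were the variance, thresholds, pseudocounts, coverage minimum, centring, the test, doubly listed positions, thinning and each replicate left out. Python 3.11, NumPy 2.4.6, pandas 2.3.3, SciPy 1.17.1, matplotlib 3.10.9, R 4.3.3, limma 3.58.1 and edgeR 4.0.16 were used.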

Additional observations from a re-analysis of the deposited data

Results flagged for a closer look

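At 3 of 58 sets of 4 pair values, 1 value lay far from the other 3, where chance gives about 1 in 20 sets. In RluA-2 replicate 4, COX3 702 had a log2 fold change of 1.59, against 1.94 to 1.96 in the other RluA-2 replicates. In the same replicate, RpS19a 738 had 2.71, against 3.07 to 3.09. U5:63BC 46 had 2.58 in RluA-2 replicate 2, where 3 CMC inserts covered it, against 4.09 to 4.2.

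Fold changes of RluA-2 minus w1118 differed by limma (log2 differences with adjusted p) at 13 of the named positions, against 58 of 208759 positions (0.0278%) over all. The 5 largest and 5 smallest differences were named because they had passed this test, and 18S 1086 and 1111 after their values were seen. The count of 13 therefore follows from the choice and is a list only. Higher in RluA-2 were Argk1 8482 by 5.73 (adjusted p = 0.00653), Argk1 8483 by 4.69 (0.00653), RpL14 770 by 2.88 (0.0197), blw 875 by 2.66 (0.00143), Rh4 83 by 2.54 (0.000288), 28S 2687 by 1.29 (0.0177), 18S 1111 by 1.22 (0.0018) and 18S 1086 by 1.15 (0.000146). Lower in RluA-2, the log2 differences were -2.50 at CG4000 596 (1.35e-06), -2.47 at CG4000 432 (0.00786), -2.41 at Nplp3 466 (0.00501), -2.33 at CG31904 3873 (0.0132) and -2.29 at CG7214 431 (0.0267). At Nplp3 466 the mock ratio was higher in RluA-2.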

How the results depend on the processing

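The count of positions called in all 4 RluA-2 pairs was 1303, and 34136 with the standard pooled variance, 480 without positions that have 2 entries, 85 after thinning to a coverage of 1000, 2071 when 2 pairs sufficed, and 1315 to 1511 with 1 replicate left out. The 16008 positions raised by paired limma became 88464 when tested against no change, 3607 with each pair centred on its median and 24851 with edgeR, and 11249 to 14462 with 1 replicate left out. Without the replicate block there were 15882. The 58 positions that differ between the genotypes were 33 to 105 with 1 replicate left out and 72 with a replicate block, although the genotypes share only a number, with r of -0.0003 to 0.012 between same-numbered pairs. The spike-in value ran from 6.73 to 6.80 with a replicate left out, and the median of the known sites from 5.59 to 5.69, and was 5.10 with centring. The causes were not tested. None of the fold changes and genotype differences of named sites, many of them chosen for their size, changed sign in these alternatives. Centring, however, turned the balance in cytoplasmic rRNA from 1124 higher and 511 lower positions to 574 and 757. Of the 43 named sites, COX2 381, COX3 702, lrRNA 1201 and 7SK 269 no longer passed limma's test with centring. Depth limits calls in low RNAs, the rRNA unit takes much of each library, and mock terminations are absent from positions without a CMC termination, so that lowered positions with no CMC stop are not listed.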
